A study of Ovis aries with 30 samples.

Results

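The genes of lipolysis and of the lipid droplet surface described here are PNPLA2, LIPE, MGLL, ABHD5, G0S2, PLIN1, PLIN2, PLIN5, CIDEC and PDE3B, 10 of the 28524 genes in the count table, taken by their symbols. Perirenal brown adipose tissue (BAT) and thyroid of 15 Romney lambs, each 1 lamb of a twin pair, were used for RNA sequencing. The cold group spent 2 days at 4 °C (6 lambs), the ambient temperature (AT) group 2 days at 20–22 °C (6 lambs), and the 3 controls were sampled within about 24 h of birth. The labels name no allele or agent, and each of the 30 libraries held 1 tissue of 1 lamb. Treated lambs were older than the controls when sampled, so age and housing cannot be told apart against the controls, and only cold against AT compares lambs housed for the same time. The study left 1 control out of both tissues, here control 2, so 14 libraries per tissue entered the tests, with 2 controls.

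Fat cells store triglyceride in droplets. In lipolysis, adipose triglyceride lipase (PNPLA2) removes the first fatty acid, hormone-sensitive lipase (LIPE) the next, and monoglyceride lipase (MGLL) the last. ABHD5 activates PNPLA2 and G0S2 inhibits it, while the perilipins (PLIN1, PLIN2, PLIN5) coat the droplet and gate access of the lipases. CIDEC drives droplets to fuse, and PDE3B breaks down the cyclic AMP through which cold and catecholamines switch lipolysis on. In brown fat the released fatty acids fuel and activate UCP1, the protein that turns the mitochondrial proton gradient into heat.

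Total counts per library were 31556500–37025998 in BAT and 25062784–30124871 in thyroid. In BAT, LOC114112617 and LOC114115287 took 43.8–76.5% of them, which left 8093700–18276329 counts for all other genes, against 18098434–26929601 in thyroid. Normalized counts below are counts divided by a size factor per library, computed within each tissue from the study's 3 reference genes (HUWE1, RPL19 and ACTB). The lowest count of any of the 10 genes was 18, for G0S2 in thyroid control 3, with a Poisson 95% interval of 10.7–28.4, which covers counting error only. Markers followed the tissue labels: the adipocyte marker ADIPOQ was at 10840–204209 in BAT and 143–4775 in thyroid, and the thyroglobulin gene TG was at 1216226–5344179 in thyroid and 9.47–1108 in BAT. Summed markers of macrophages (748–2656), adrenal cortex (33.3–2747) and kidney (2.71–37.2) were low in BAT beside those of adipocytes (13194–209303). Summed endothelial markers, at 13612–49451 in BAT, were not low beside them. Some thyroid libraries held RNA of neighbouring tissues: the muscle actin gene ACTA1 reached 133281 in control 1 and 1339890 in AT lamb 3, and the parathyroid hormone gene PTH reached 7229 in control 2. In bulk tissue, fewer cells of a type and less RNA per cell cannot be told apart.

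The 10 genes lie on 8 chromosomes of the authors' genome build, Oar_rambouillet_v1.0, in the gene models used for counting. PNPLA2 is on chromosome 21 (52263571–52268164, minus strand, 9 exon blocks), LIPE on chromosome 14 (54060060–54072858, plus strand, 11 exon blocks) and G0S2 on chromosome 12 (77105948–77106931, minus strand, 2 exon blocks). MGLL (61694713–61782287), ABHD5 (16584321–16621969) and CIDEC (17862281–17872348) all lie on the plus strand of chromosome 19. PLIN1 is on chromosome 18 (18508274–18533248, minus strand), PLIN2 on chromosome 2 (94829749–94844397, minus strand) and PLIN5 on chromosome 5 (18080527–18092363, plus strand). PDE3B, on chromosome 15 (40924861–41110684, minus strand, 17 exon blocks), has the longest exonic length, 5757 bases, and G0S2 the shortest, 831 bases. Exons of PLIN1 overlap PEX11A on the same strand, so reads in the shared bases cannot be assigned to 1 of them, and PLIN1 is uncertain to that extent. For the other 9 genes no overlap with another gene was found.

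All 10 genes were higher in BAT than in thyroid in every one of the 12 treated lambs. PLIN1, the main droplet coat of fat cells, and LIPE differed most. Their log2 fold changes (log2FC) were 5.01 ± 0.41 (SE) and 4.99 ± 0.23, too close to rank, and CIDEC followed (4.51 ± 0.34). ABHD5 differed least (2.28 ± 0.23), next to PNPLA2 (2.42 ± 0.19) and PLIN2 (2.46 ± 0.20). By edgeR's quasi-likelihood test with Benjamini-Hochberg adjustment over 17021 genes, 10 of 10 genes were called higher in BAT, at |log2FC| ≥ 1 and an adjusted p under 0.05, with adjusted p between 2.44e-16 and 1.80e-08. Of all genes tested, 27.2% were called higher in BAT and 40.6% in either direction. For each gene the exact sign-flip permutation test over the 12 lambs gave p = 0.000488 (2-sided), the smallest these lambs allow. With the reference genes the median gene was 0.34 higher in BAT on the log2 scale, and with TMM scaling 0.10 higher. The split of all called genes was 4638 higher and 2270 lower with the reference genes, 3681 and 2789 with TMM, and 3271 and 3151 with median-of-ratios size factors. The log2FC of the 10 genes under median-of-ratios scaling ran from 1.91 for ABHD5 to 4.59 for LIPE, and 10 of 10 remained called.

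The size of the tissue gap varied from lamb to lamb far more for some genes than for others. Within a lamb, MGLL was 4.97- to 12-fold higher in BAT (median 7.89) and PLIN2 was 3.08- to 10.2-fold higher (median 5.49). LIPE was 5.46- to 53.3-fold higher, with a median of 32.5. PLIN1 ranged from 3.77-fold in AT lamb 6 to 141.9-fold in AT lamb 1, and G0S2 from 3.00-fold in AT lamb 6 to 97.9-fold in AT lamb 2. AT lamb 6 had the smallest gap for 9 of the 10 genes, down to 1.49-fold for ABHD5, and AT lamb 3 for PLIN2. These folds put both tissues on one scale of size factors.

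**Figure D1:**
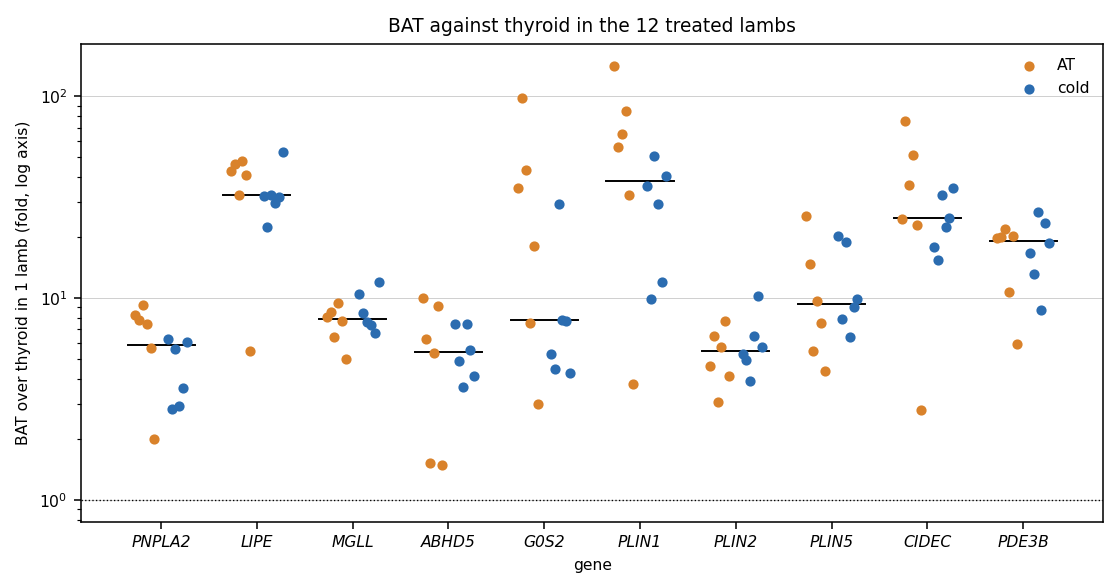
Fold of BAT over thyroid within a lamb (vertical log axis) for each gene, with 1 point per treated lamb (AT orange, cold blue) and a bar at the median of 12 lambs. Every point lies above 1, and AT lamb 6 holds the lowest point of every gene but PLIN2.

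The order of the genes by normalized count per kb of exonic length, medians over 14 libraries, was alike in its first places in both tissues. In BAT, PNPLA2 was highest at 4707, followed by MGLL at 1596, LIPE at 737.5 and PLIN5 at 663. CIDEC (388), G0S2 (385) and PLIN1 (341) followed, and PDE3B (185), ABHD5 (156) and PLIN2 (148) were lowest. PNPLA2 exceeded MGLL, and MGLL exceeded LIPE, in 14 of 14 libraries, and PLIN1 exceeded PDE3B in 14 of 14. Other neighbours traded places, such as LIPE and PLIN5 (LIPE higher in 8 of 14) or CIDEC and G0S2 (CIDEC higher in 5 of 14), so their order did not exceed the spread. In thyroid, PNPLA2 (2568), MGLL (479.5) and PLIN5 (137) led and PLIN1 was last (22.8). PNPLA2 exceeded MGLL, and MGLL exceeded PLIN5, in 14 of 14 thyroid libraries. LIPE, the 3rd in BAT, was the 7th in thyroid at 62.9 per kb.

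Between cold and AT lambs in BAT, none of the 10 genes passed the test, against 0.275% of 14905 genes tested in either direction. The largest differences were of G0S2 and PLIN1, with lower values in cold, and of PLIN2, with higher values in cold. These 3 of the 10 had an unadjusted p under 0.05, as did 12.3% of all genes. The median log2FC of the 10 was −0.25, and that of all genes −0.05. All 10 had overlapping groups, whereas 0.691% of all genes had none.

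Among the lipases and their activator, PNPLA2 had the largest estimate. Its normalized count in BAT was lowest at 3254, median 14680 and highest at 15845 in AT, and 5953, 7825 and 12370 in cold, against 7907 and 4689 in controls 1 and 3. In 5 of 6 AT lambs it was at or above 14000, over every cold lamb, but AT lamb 6 was the lowest of all 14 libraries. The log2FC of cold against AT was −0.63 ± 0.31 (95% interval −1.28 to 0.02, adjusted p = 0.424). Without AT lamb 6 it was −0.84 ± 0.19 with an adjusted p of 0.0438 by edgeR, still under the fold needed for a call. That fit was picked after seeing the low value of this lamb. Over all edgeR fits that left out 1 library each, the log2FC ran from −0.84 to −0.55 and the adjusted p from 0.0438 to 0.620. LIPE spanned 544–2732 in AT and 1239–2553 in cold, with medians of 2051 and 1442, and differed by −0.24 ± 0.30. MGLL (−0.04 ± 0.20) and ABHD5 (0.10 ± 0.30) differed least. The 95% interval of MGLL, −0.46 to 0.38, leaves out a change by the fold of a call in either direction, while that of PNPLA2 does not.

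G0S2, the inhibitor of PNPLA2, showed the widest gap. In AT it was at 1217, 1570, 1224, 152, 964 and 183 in lambs 1 to 6. The cold lambs lay closer together, at 137 at the lowest, 290 at the median and 373 at the highest, and controls 1 and 3 were at 1042 and 115. Thus 4 AT lambs exceeded every cold lamb, and AT lambs 4 and 6 lay within the cold range. The log2FC was −1.66 ± 0.59 (95% interval −2.92 to −0.40, adjusted p = 0.302), and the exact permutation test gave p = 0.0736, where 0.00216 is the smallest that 6 against 6 allows. Over the fits that left out 1 library each, it stayed between −1.90 and −1.42. With the RNA integrity number as a covariate it was −1.39 ± 0.61 (edgeR, adjusted p = 0.382). Relative to its target, per kb, G0S2 over PNPLA2 had a median of 0.168 in AT (0.0219–0.239) and 0.0752 in cold (0.0381–0.127), with overlap.

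The estimates of the droplet coats differed in sign. PLIN1 in BAT was lowest at 416, median 1152 and highest at 4685 in AT, and 439, 593 and 1373 in cold. The log2FC was −1.27 ± 0.48 (adjusted p = 0.311, exact permutation p = 0.0996), and it was −0.65 ± 0.36 without AT lamb 1, the lamb at 4685. PLIN2, the coat protein of most cell types, ran the other way, with 292, 329 and 473 in AT and 303, 502 and 1171 in cold as lowest, median and highest. Its log2FC was 0.72 ± 0.26 (adjusted p = 0.297, exact permutation p = 0.0390 before adjustment over genes), and 0.39 ± 0.18 without cold lamb 5, the lamb at 1171. PLIN5, a coat of oxidative tissues, spanned 393–3483 in AT and 918–2664 in cold and differed by −0.24 ± 0.40. The ranges of AT and cold overlapped for all 3 coats.

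Set against each other within a library, PLIN2 over PLIN1 per kb had a median of 0.302 in AT (0.0886–0.767) and 0.727 in cold (0.426–2.44). Of the summed level of the 3 coats per kb, PLIN1 held a median of 37.2% in AT (25.7–53.1%) and 24.5% in cold (18.3–28.6%). PLIN2 held 9.47% (4.70–27.6%) and 18.7% (12.2–45.2%). PLIN5 held the largest part by its medians, 46.8% in AT (36.3–65.7%) and 58.4% in cold (36.3–62.0%). No test was run on these shares, which combine genes already tested. In BAT control 2, PLIN1 held 50.4%, PLIN2 43.1% and PLIN5 6.48%.

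**Figure D2:**
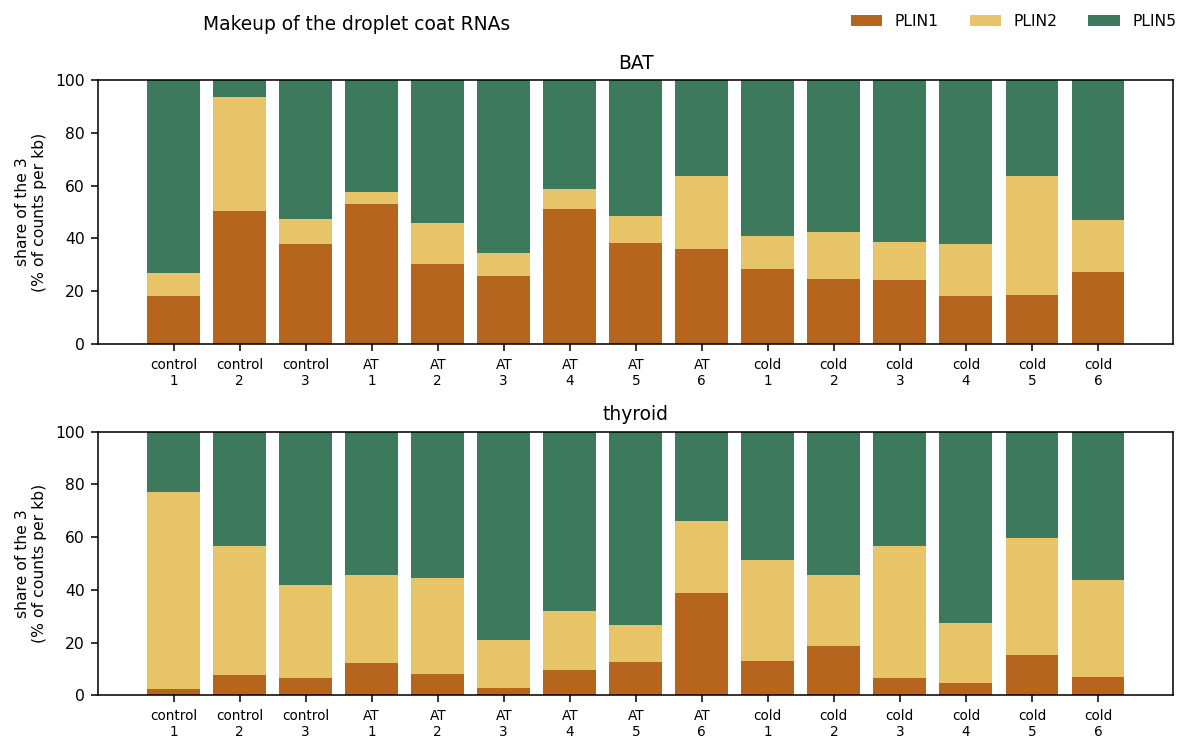
Share of PLIN1 (brown), PLIN2 (yellow) and PLIN5 (green) in their summed normalized count per kb, in percent, 1 bar per library in BAT (top) and thyroid (bottom), controls first, then AT and cold. PLIN1 held at most 28.6% in every cold BAT library and 25.7–53.1% in AT, and BAT control 2 stands apart by its small share of PLIN5.

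CIDEC in BAT was at 341–1931 in AT and 640–2069 in cold, with medians of 1543 and 966 (log2FC −0.27 ± 0.36). PDE3B was at 466–1329 in AT and 577–1070 in cold, with medians of 1258 and 877 (−0.39 ± 0.22, adjusted p = 0.485). For both genes AT lamb 6 lay under all cold lambs, while the 5 other AT lambs lay above the cold median.

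AT lamb 6 was the lowest of 14 BAT libraries for 8 of the 10 genes, and with TMM scaling for 6 of 10. The same library had the lowest ADIPOQ (10840) and the lowest UCP1 (195) and the largest size factor of the 14, 1.84. Its summed level of 10 adipocyte markers was 13194, against 37151 to 83253 in the other AT lambs. Summed over these markers, AT had a median of 42345 (13194–83253) and cold 23008 (18133–43580), so this sum had a lower median in cold, and the estimates of G0S2, PLIN1 and PNPLA2 were also lower in cold. Summed brown adipocyte markers had a higher median in cold, 11204 (5737–17617) against 8200 in AT (1422–17688). UCP1, which is in that sum, had medians of 8553 in cold (2907–12407) and 3458 in AT (195–12953). CIDEA, also in it, had a lower median in cold, 1095 (970–3088) against 1235 in AT (244–4226). Summed endothelial markers had a higher median in cold, 41791 (33807–49451) against 31407 in AT (26269–36247), with overlap. Of the genes in that sum, VWF had medians of 18675 in cold and 10790 in AT, and PECAM1 11479 and 11580. The part of these markers in the differences was not tested.

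**Figure D3:**
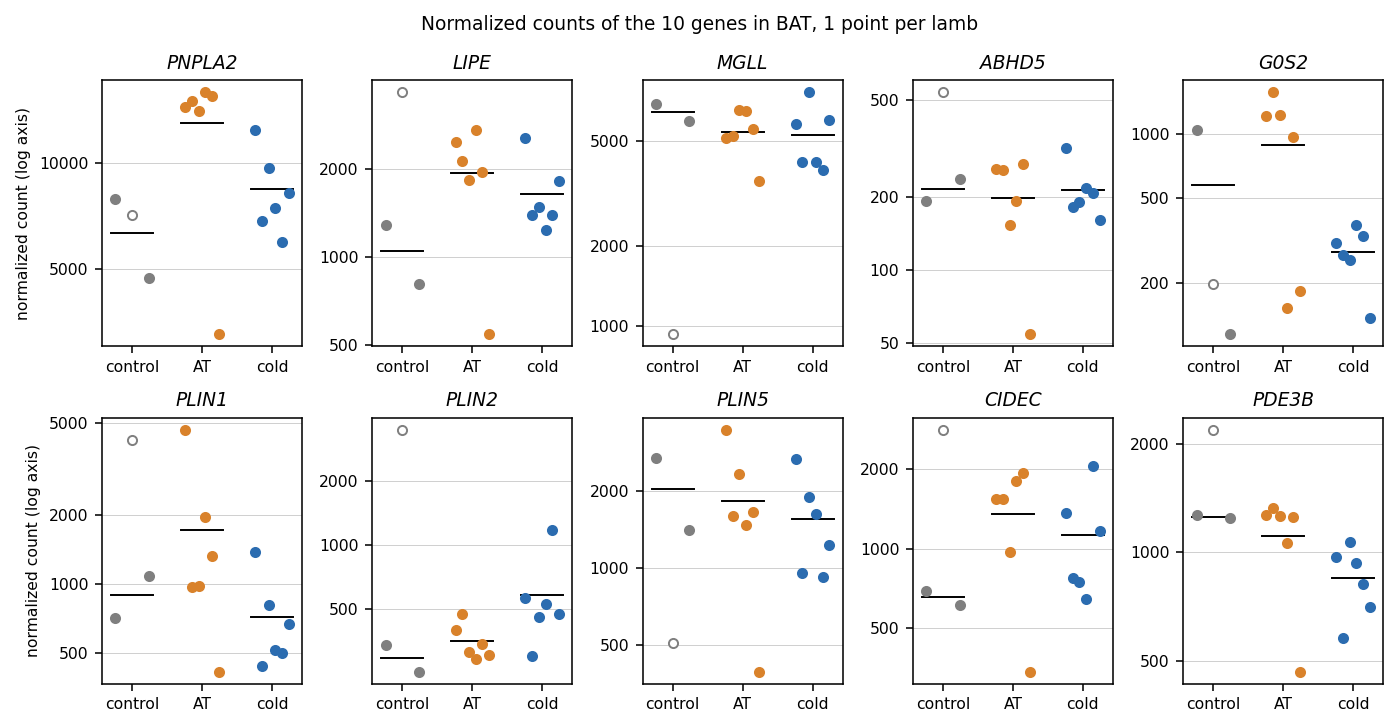
Normalized counts in BAT (vertical log axis) of each gene in controls, AT and cold lambs, 1 point per lamb, with a bar at the mean of the tested lambs and an open point for control 2, which was in no test. AT lamb 6, the last point of its group, is the lowest tested library for 8 genes, and G0S2 is at 964 or more in 4 AT lambs and at most at 373 in cold.

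Against the controls in BAT, no gene of the 10 passed the test in AT (6.07% of all genes did) or in cold (1.21%). In each comparison 1 of the 10 had an unadjusted p under 0.05, as did 26% of all genes in AT and 18.1% in cold. In AT the largest estimates were CIDEC (1.06 ± 0.55, adjusted p = 0.234), PNPLA2 (1.04 ± 0.46, adjusted p = 0.164) and PLIN1 (0.94 ± 0.70). LIPE, at 1289 and 810 in controls 1 and 3 and at or above 1834 in 5 of 6 AT lambs, differed by 0.89 ± 0.45 (adjusted p = 0.217). Without AT lamb 6, a fit picked after seeing its low values, LIPE (1.07 ± 0.29, adjusted p = 0.0264) and PNPLA2 (1.23 ± 0.28, adjusted p = 0.0129) were called higher in AT by edgeR. The 6.07% above belongs to the fit with AT lamb 6, and no share of all genes is given for the fit without it. The SE of genes not called fell as well, that of ABHD5 from 0.42 to 0.27 and that of PLIN5 from 0.56 to 0.42. LIPE and PNPLA2 therefore pass or miss the threshold with 1 library. G0S2 differed by 0.62 ± 0.84, with 95% limits of −1.18 and 2.42, since controls 1 and 3 themselves stood at 1042 and 115.

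In cold against the controls, PLIN2 was at 303–1171 against 338 and 255, with a log2FC of 0.98 ± 0.38 (adjusted p = 0.185). CIDEC (0.79 ± 0.54) and LIPE (0.65 ± 0.44) were higher by their estimates and G0S2 (−1.04 ± 0.78) and PDE3B (−0.57 ± 0.31) lower, none past the threshold. PDE3B was the only gene of the 10 whose groups did not overlap, with 1269 and 1243 in controls and 577–1070 in cold, where 24.6% of all genes had no overlap. In AT against the controls no gene of the 10 was without overlap, against 24.3% of all genes. The smallest exact permutation p that 6 lambs against 2 controls allow is 0.0357, and for PDE3B it was 0.0714. The called genes split into 86 higher and 95 lower in cold with the reference genes but 227 and 91 with TMM, and into 426 and 478 against 649 and 366 in AT.

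Control 2, in no test, changed the values against the controls in BAT, most of all that of PLIN2. It held 3468 normalized counts of PLIN2, against 255–1171 in the 14 tested libraries, and was also above all of them for LIPE (3670), ABHD5 (540), CIDEC (2831) and PDE3B (2194). MGLL was below them all at 931.5, against 3527–7666. The same library had ADIPOQ at 204209 and UCP1 at 87348, the highest of all 15. With all 3 controls the log2FC of PLIN2 in AT against the controls was −1.89 ± 0.58 and passed the test (edgeR, adjusted p = 0.0449), in place of 0.26 ± 0.37 with 2 controls. In cold it was −1.18 (adjusted p = 0.239) in place of 0.98. With all 3 controls, CIDEC in AT was at 0.02, LIPE at 0.07, PLIN1 at −0.16 and MGLL at 0.32, in place of 1.06, 0.89, 0.94 and −0.25 with 2 controls, while PNPLA2 was at 1.05 in place of 1.04.

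**Figure D4:**
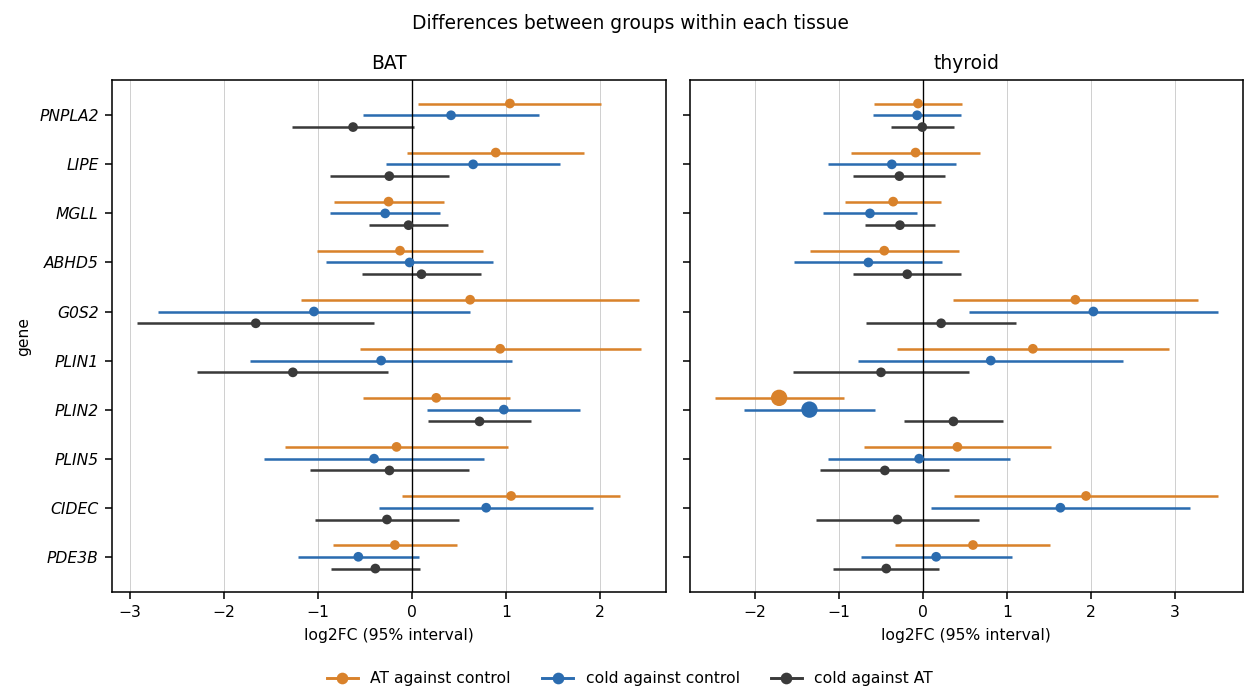
Log2FC of each gene with its 95% interval (horizontal) in BAT (left) and thyroid (right) for AT against control, cold against control and cold against AT, with larger points for called genes. The only called differences are those of PLIN2 in thyroid, −1.71 in AT and −1.35 in cold against the controls.

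In thyroid, PLIN2 was the only one of the 10 genes to pass, and it fell against the controls in both treatments. It was at 947 and 288 in controls 1 and 3, at 113, 194 and 264 in AT and at 171, 244 and 298 in cold, as lowest, median and highest. The log2FC was −1.71 ± 0.36 in AT (edgeR, adjusted p = 0.00583) and −1.35 ± 0.36 in cold (adjusted p = 0.0208). Called genes made up 7.8% of 16122 genes tested in AT and 8.04% in cold, and those called lower 5.98% and 6.15%. For PLIN2 the exact permutation test gave p = 0.0357 in AT, the smallest possible, and 0.0714 in cold. An unadjusted p under 0.05 was found for 3 and 4 of the 10 genes, and for 36.5% and 35.5% of all genes. The comparisons share the 2 controls. The median gene was lower by 0.28 on the log2 scale in both, a shift that TMM scaling turned to 0.05 and 0.02. With TMM the log2FC of PLIN2 was −1.47 (adjusted p = 0.0335) in AT and −1.14 (adjusted p = 0.0854, no call) in cold. The called genes split into 294 higher and 964 lower in AT with the reference genes but 474 and 270 with TMM, and into 305 and 991 against 456 and 336 in cold.

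The fall of PLIN2 in thyroid rested on control 1, the control rich in muscle RNA. Against control 3 alone, at 288, all 6 AT lambs and 5 of 6 cold lambs were lower. With control 2 (399) in place of control 1 the log2FC was −0.86 ± 0.31 (adjusted p = 0.0717) in AT and −0.50 ± 0.31 (adjusted p = 0.305) in cold by edgeR. In a fit chosen after seeing the data, without the libraries rich in muscle RNA (control 1 and AT lamb 3), which leaves 1 control that is assumed to vary like the other groups, it was −0.74 (adjusted p = 0.129) and −0.26 (adjusted p = 0.630). Summed skeletal muscle markers were 273177 in control 1 and 136 in control 3, 101–3443 in cold lambs and 192–993 in AT lambs other than AT lamb 3. The part of muscle RNA in the level of PLIN2 was not tested.

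G0S2 and CIDEC were higher by their estimates in the thyroid of treated lambs, without passing the test. G0S2 was at 29.3 and 23.8 in controls, at 40.5, 82.2 and 167 in AT and at 22.1, 115 and 169 in cold, as lowest, median and highest. The log2FC was 1.81 ± 0.68 in AT (adjusted p = 0.0708) and 2.03 ± 0.69 in cold (adjusted p = 0.0530). AT and the controls did not overlap for G0S2, and in cold only lamb 3 lay under the controls. With DESeq2's Wald test both passed (adjusted p = 0.0210 and 0.0104), and the share of all genes that this test called is not given beside them. CIDEC was at 28.2 and 52.9 in controls, 51.6–335 in AT and 58.2–204 in cold, and differed by 1.94 ± 0.74 (adjusted p = 0.0722) and 1.63 ± 0.72 (adjusted p = 0.122). Of the 10 genes, G0S2 and PLIN2 in AT and CIDEC in cold had groups without overlap, against 27.3% and 34.6% of all genes.

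Fat markers differed among the same thyroid libraries, and not in one direction. ADIPOQ was at 143 and 296 in controls 1 and 3, 289–4775 in AT and 367–2756 in cold, and the sum of 10 adipocyte markers was 547 and 986 in controls, 709–5812 in AT and 745–3541 in cold. In 5 of the 12 treated lambs this sum lay under that of control 3. Summed brown adipocyte markers were at 755 and 963 in the controls, with lower medians of 668 in AT (501–837) and 494 in cold (433–773). UCP1, which is in that sum, was at 172 and 340 in the controls with medians of 17.2 and 11.1. CIDEA, also in it, was at 33.7 and 48.9 in the controls, with medians of 59.6 in AT and 48.3 in cold. PPARG, the regulator of fat cell identity, was at 332 and 442 in the controls, with medians of 321 and 291. Thyroid AT lamb 6, with the highest sum, was also the highest of the tested libraries for PLIN1 (301), CIDEC (335) and LIPE (272). The fat hormone gene LEP was at 0 in thyroid control 1, control 2 and AT lamb 2, and at most at 18.6 in the others. The part of fat cells in the thyroid values was not tested.

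Of the other genes in thyroid none passed, and PLIN1 had the largest estimate, 1.31 ± 0.76 in AT (adjusted p = 0.228) and 0.81 ± 0.74 in cold (adjusted p = 0.466). PNPLA2 was at 5309 and 5281 in controls, 3924–6972 in AT and 3647–6690 in cold, with log2FC of −0.06 ± 0.25 and −0.07 ± 0.25. Its 95% intervals, −0.59 to 0.46 and −0.60 to 0.45, leave out a change by the fold of a call. MGLL was at 1738 and 3180 in controls and 1352–2532 in cold, and differed by −0.63 ± 0.26 in cold (adjusted p = 0.103). ABHD5 differed by −0.46 ± 0.42 in AT and −0.65 ± 0.41 in cold. LIPE, PLIN5 and PDE3B had estimates between −0.37 and 0.59 and adjusted p between 0.339 and 0.957. Without the libraries rich in muscle RNA, which leaves control 3 as the only control, the log2FC of ABHD5 was −1.12 in AT and that of MGLL −1.01 in cold. For MGLL, control 3 (3180) was the highest of the 14 tested thyroid libraries. In that fit the median gene was 0.45 lower in AT and 0.41 lower in cold on the log2 scale. PLIN5 was at 1102 in AT lamb 3, the library with the most muscle RNA, against 246–565 in the other AT lambs. In thyroid control 2, which was in no test, PNPLA2 stood at 44774, 6.42 times the highest of the 14 tested libraries. With all 3 controls its log2FC was −1.86 in AT (edgeR, adjusted p = 0.0213) and −1.88 in cold (adjusted p = 0.0190), both called, so this library alone decides the value.

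**Figure D5:**
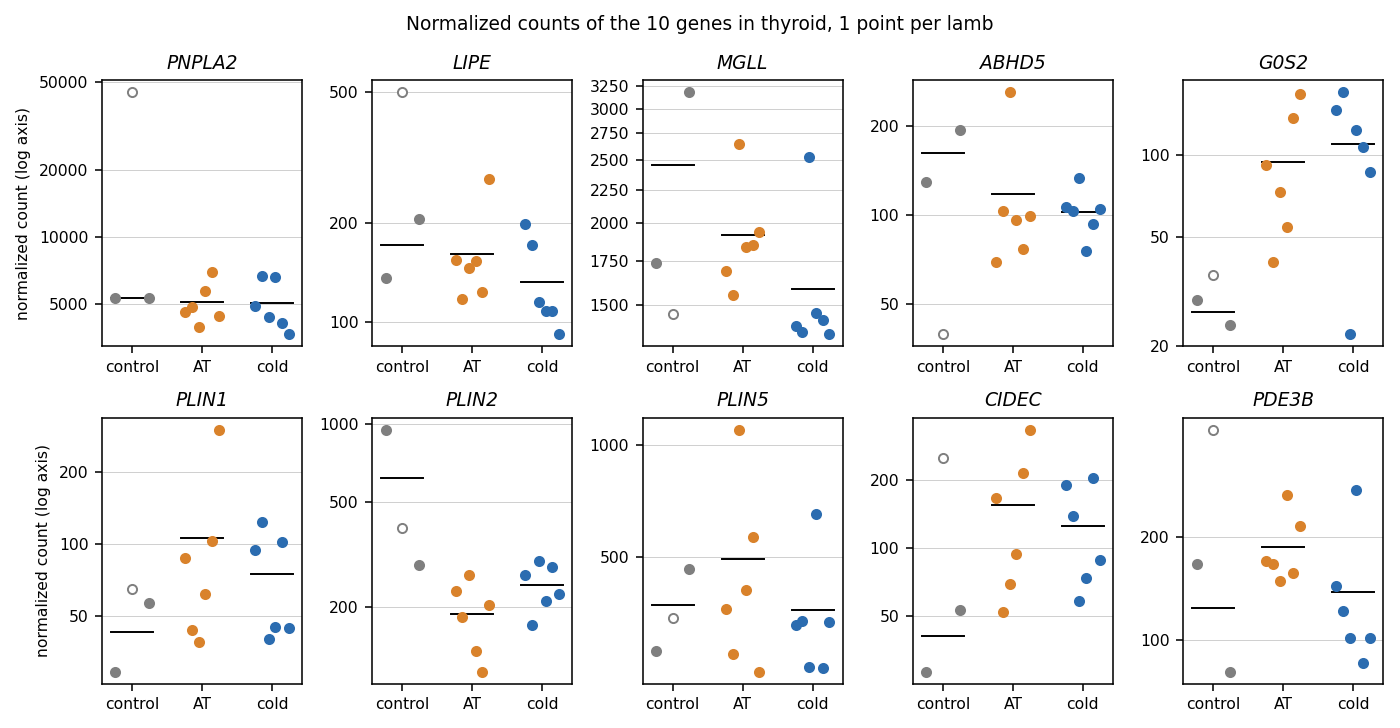
Normalized counts in thyroid (vertical log axis) of each gene in controls, AT and cold lambs, 1 point per lamb, with a bar at the mean of the tested lambs and an open point for control 2, which was in no test. PLIN2 is at 947 in control 1 and at most at 298 in treated lambs, and G0S2 is at 40.5 or more in all AT lambs and 5 of 6 cold lambs but at most at 29.3 in the tested controls.

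Between cold and AT in thyroid, none of the 10 genes passed, and edgeR called 0 of 16122 genes, with 870 at an unadjusted p under 0.05 and 2 called by DESeq2. None of the 10 had an unadjusted p under 0.05, against 5.4% of all genes, and all 10 had overlapping groups, against 0.192% of all genes with none. The estimates ran from −0.50 ± 0.49 for PLIN1 to 0.36 ± 0.28 for PLIN2. PNPLA2 differed by −0.01 ± 0.17, with 95% limits of −0.38 and 0.36.

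Whether a treatment changed the genes differently in the 2 tissues was tested by an interaction in the fit of both tissues, and none of the 10 passed. PLIN2 came nearest: its change against the controls was higher in BAT than in thyroid by 2.01 ± 0.55 in AT (adjusted p = 0.0535) and 2.34 ± 0.55 in cold (adjusted p = 0.0703). Of all genes, 1.62% were called in AT and 0.188% in cold. With the lamb as a block, which pairs the libraries of each animal, the difference of PLIN2 in AT was 1.83 ± 0.41 and passed (edgeR, adjusted p = 0.0400). These differences carry the controls described above: with all 3 controls they were −0.32 in AT and 0.00 in cold. For cold against AT, G0S2 had the largest estimate, −1.89 ± 0.76 (adjusted p = 0.511), since it was lower in cold by 1.66 in BAT but higher by 0.21 in thyroid. In that interaction edgeR called 0 of 17021 genes, with 1339 at an unadjusted p under 0.05 and 29 called by DESeq2.

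Over the 14 BAT libraries the 10 genes did not follow one pattern. The patterns of PNPLA2 and LIPE were alike, with Pearson r = 0.93 of log2(normalized count + 1), and over 14905 genes only 1 was more like LIPE than PNPLA2 was. In the other direction, LIPE ranked 22 among the genes most like PNPLA2. PLIN2 stood apart, as the least like gene for 8 of the other 9, with r of −0.01 to PNPLA2 and −0.29 to MGLL. The gene most like PNPLA2 over all tested was PCSK4 (r = 0.97), for LIPE it was CLHC1 (0.95), for MGLL FANCG (0.94), for ABHD5 HADHB (0.94) and for G0S2 MSRB1 (0.87). For PLIN1 it was NDRG2 (0.93), for PLIN2 LOC101102413 (0.74), for PLIN5 MCRIP2 (0.97), for CIDEC ACSM1 (0.95) and for PDE3B TSTD3 (0.94). These values describe 14 libraries that share their scaling, and AT lamb 6 was low in many of these genes.

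Of the other lipid droplet proteins, none of the 12 tested was called in any comparison of treatments in BAT or thyroid by edgeR. Of all genes in BAT, 6.07% were called in AT against control, 1.21% in cold against control and 0.275% in cold against AT. In thyroid these shares were 7.8%, 8.04% and 0%. In BAT 0 of the 12 had an unadjusted p under 0.05, against 26%, 18.1% and 12.3% of all genes in the same order. In thyroid 5 and 4 had one in AT and cold against the controls, against 36.5% and 35.5% of all genes. By DESeq2 1 was called lower in thyroid in cold against the controls. Between the tissues, 5 of 13 were called higher in BAT and 0 lower, where 27.2% of all genes were called higher, among them CIDEA (5.96 ± 0.42), a droplet protein of brown fat, PLIN4 (4.85 ± 0.37), FITM2 (2.22 ± 0.21) and LDAH (2.01 ± 0.11). Their median log2FC between tissues was 0.68, against 0.34 for all genes and 3.52 for the 10 genes.

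Of 22 genes that carry signals onto lipolysis, 15 were called higher in BAT than in thyroid and 1 lower, where 27.2% of all genes were called higher and 40.6% in either direction. ADRB3, the β3-adrenergic receptor of fat cells, was higher by 5.64 ± 0.40, the protein kinase A subunit PRKAR2B by 3.61 ± 0.25, PDE3A by 2.86 ± 0.14 and the natriuretic peptide receptor NPR1 by 2.26 ± 0.14, while PDE4D was lower (−1.67 ± 0.28). Within BAT, 1 of 22 was called in AT against the controls (6.07% of all genes). It was the phosphodiesterase PDE4B, which rose from 55.4 and 69.5 in controls to 116–203 (1.32 ± 0.33, adjusted p = 0.0229). Within thyroid, 2 of 22 fell in both treatments against the controls, where 7.8% and 8.04% of all genes were called. The insulin receptor substrate IRS1 was at 612 and 2615 in controls and 164–726 in AT (−1.84 ± 0.46, adjusted p = 0.0144) and differed by −1.76 ± 0.46 in cold. The adenylate cyclase ADCY3 differed by −1.22 ± 0.35 and −1.21 ± 0.35. With TMM scaling 0 of 22 were called in thyroid in either comparison. Without the libraries rich in muscle RNA, which leaves 1 control, IRS1 was at −2.73 and −2.46 and ADCY3 at −1.68 and −1.64. With control 2 in place of control 3 neither was called, IRS1 at −0.58 in AT and −0.50 in cold and ADCY3 at −0.10 and −0.09. With control 2 in place of control 1, IRS1 was called in both (−1.89 and −1.81) and ADCY3 in neither (−0.89 and −0.88). The change of IRS1 against the controls differed between the tissues in AT (2.84 ± 0.62, adjusted p = 0.0190) and in cold (2.87 ± 0.62, adjusted p = 0.0476), the latter with an adjusted p of 0.0530 under TMM.

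Of 14 genes of fatty acid and glycerol handling, 11 were called higher in BAT than in thyroid and 2 lower, against the same 27.2% and 40.6% of all genes. PNPLA3, a paralog of PNPLA2, was higher by 6.09 ± 0.43, the fatty acid binding protein FABP4 by 5.47 ± 0.35, the fatty acid activating enzyme ACSL1 by 3.04 ± 0.22 and the triglyceride synthase DGAT1 by 3.00 ± 0.21. ABHD6 (−1.30 ± 0.16) and MOGAT1 (−1.64 ± 0.49) were lower. Within BAT, 2 of 13 tested were called in AT against the controls, against 6.07% of all genes. The lysosomal lipase LIPA rose from 92.3 and 101 to 191–441 (1.60 ± 0.40, adjusted p = 0.0226), an estimate of 0.99 with all 3 controls (adjusted p = 0.121). FABP4 fell from 51810 and 59584 to 12488–37788 (−1.39 ± 0.33, adjusted p = 0.0184). Within thyroid, 2 of 13 fell against the controls in both treatments, against 7.8% and 8.04% of all genes called. AGPAT2, an enzyme of triglyceride synthesis, differed by −1.21 ± 0.35 in AT and −1.31 ± 0.34 in cold, and LPIN1, which makes diacylglycerol, by −1.95 ± 0.57 and −2.50 ± 0.57. LPIN1 was at 1793 in 1 control and 147 in the other, and without the libraries rich in muscle RNA its log2FC was 0.42 and 0.21. AGPAT2 was not called with control 2 in place of control 1 (−1.08 and −1.18) or of control 3 (0.25 and 0.14), and LPIN1 was not called in AT with control 2 in place of control 1 (−1.36, adjusted p = 0.0942). With TMM scaling 0 of 13 were called in AT and 1 in cold, LPIN1.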

How the data were processed

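RNA from BAT and thyroid was extracted with TRIzol, mRNA was captured on oligo(dT) beads, and libraries were sequenced as 150-base pairs on BGISEQ-500. The authors trimmed reads (Trimmomatic 0.39), aligned them to Oar_rambouillet_v1.0 (STAR 2.7.7a) and counted them per gene with featureCounts (Subread 2.0.0), multimapping reads included, and deposited raw counts. The strand setting was not given in the sources used here. Columns of the authors' own comparisons were not used.

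Here, edgeR 4.0.16 was run on genes that reached 10 reads in 10 or more libraries (robust quasi-likelihood test, R 4.3.3), scaled by 3 reference genes, with Benjamini-Hochberg adjustment. A gene was called at |log2FC| ≥ 1 and adjusted p under 0.05. Errors are SE unless stated. For edgeR the SE was computed as |log2FC| over the square root of the F statistic of its test, and the 95% intervals rest on it. Library totals and counting intervals describe counting depth only, not the variation between lambs. Exact tests used log2(normalized count + 1). The left-out control was matched to control 2 through proportionality with the study's normalized counts. Chromosome numbers came from gene symbols shared with a newer RefSeq assembly, ARS-UI_Ramb_v3.0. Replicates were separate lambs. Lamb numbers in the labels pair BAT and thyroid of 1 animal (correlations of deviations 0.165–0.371 in cold and −0.00272–0.296 in AT). DESeq2 1.42.0, TMM, median-of-ratios scaling, other filters, controls and leave-one-out fits were tried. Tests were checked on simulated data with genes changed by 1.5 on the log2 scale between cold and AT. In BAT 86.2% of 94 such genes were recovered, and in thyroid 79.2% of 96. The simulated reference genes carried no noise and no outlying lamb was added, so these rates may be higher than in the real data. The genes and lists were chosen with earlier results of these data known. Of each list, up to 4 called genes per direction with the lowest adjusted p were named, and for each of the 10 genes the tested gene with the highest Pearson r.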

Additional observations from a re-analysis of the deposited data

Results flagged for a closer look

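Dixon's criterion was applied to normalized counts in 40 groups of 6 lambs (10 genes, 2 tissues, 2 treatments). In 13 of them the highest or lowest lamb lay apart from the others. The criterion marks about 1 in 20 of independent groups with a normal spread. The same libraries recur across the genes here, so 13 of 40 cannot be tested against that rate. In BAT, AT lamb 6 was low for PNPLA2 (3254 normalized counts, others 14000–15845) and PDE3B (466, others 1065–1329). Also in BAT, AT lamb 1 was high for PLIN1 (4685, others 416–1963), cold lamb 1 for ABHD5 (318, others 161–218) and cold lamb 5 for PLIN2 (1171, others 303–562). In thyroid, AT lamb 3, the library with the most muscle RNA, was high for MGLL (2645), ABHD5 (259) and PLIN5 (1102). Thyroid AT lamb 6, the library with the highest adipocyte markers, was high for LIPE (272) and PLIN1 (301). Thyroid cold lamb 3 was high for MGLL (2532, others 1352–1456), and cold lamb 4 for PLIN5 (653, others 251–336) and PDE3B (276, others 85.6–144).

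Control 2, which entered no comparison, lay above all 14 other libraries of its tissue for several genes. In thyroid this held for PNPLA2 (44774, 6.42 times the highest other), LIPE (498, 1.83 times) and PDE3B (414, against 276 in the highest other). In BAT it held for LIPE (3670), ABHD5 (540), PLIN2 (3468), CIDEC (2831) and PDE3B (2194), by 1.34 to 2.96 times.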

How the results depend on the processing

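Over all comparisons and alternatives, 198 of 229 counts of how many of the 10 genes were called stayed within 1.5 times the reported count. The reported count was 0 or 10 in every comparison except the 2 of thyroid against the controls, so this share says little about the calls there. The counts below stand without the share of all genes called under each alternative, so they are not results about the 10 genes. In BAT in AT against the controls, 0 of the 10 were called as reported, 1 (PLIN2) with all 3 controls, and 0 to 2 when a library was left out, with 2 without AT lamb 6 (PNPLA2 and LIPE) and 2 with control 2 in place of control 1 (G0S2 and PLIN2). PLIN2 there reversed to −1.89 with all 3 controls, and ranged from −2.35 to 0.35 when a library was left out, with negative values only where control 2 took the place of another control. In thyroid in AT against the controls, 1 (PLIN2) was called as reported, 3 by DESeq2 (with CIDEC and G0S2), 2 with all 3 controls (with PNPLA2), and 1 to 2 when a library was left out. In thyroid in cold against the controls, 1 (PLIN2) was called as reported, 2 by DESeq2 (with G0S2), 0 with TMM or median-of-ratios scaling, 3 with all 3 controls (with G0S2 and PNPLA2), 2 with only the 2 groups fitted, and 1 to 2 when a library was left out.

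For the tissue difference in AT against the controls, 0 were called as reported, 1 (PLIN2) by DESeq2, 1 (PNPLA2) with all 3 controls, 1 (PLIN2) with the lamb as a replicate block, and 0 to 1 when a library was left out. For that in cold against the controls, 1 (PLIN2) was called by DESeq2 and 0 to 1 when a library was left out. The block changed no other call of the 10 genes. The causes of these changes were not tested beyond the libraries named.

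Among all genes, BAT in cold against AT gave 41 calls as reported and 145 by DESeq2. The fit without the muscle-rich thyroid libraries, chosen after seeing the data, left 1 control, so its calls are not counted here. The lowest count, 18 for G0S2 in a thyroid control, limits its precision.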
